A study of Homo sapiens with 44 samples.

Results

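The 10 genes described here, CHAC1, DDIT3, ATF4, ASNS, TRIB3, SESN2, DDIT4, PSAT1, PHGDH and VLDLR, belong to or respond to the ATF4 branch of the cellular stress response to amino acid shortage. They are 10 of the 60499 gene identifiers in the deposited count table, matched by symbol through GENCODE release 29, and all 10 were among the 22955 genes with enough counts to test. They were selected on measured values, the spread of their levels between the day 30 wells, so every day 30 value below is a description without a test. Tests were made between the other groups.

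RNA was sequenced from 44 wells of H1, a long-established line of human embryonic stem cells, on its way from pluripotent cells to cardiac cells. Wells of pluripotent cells (n = 3) were kept on laminin LN-521. All other wells were on LN-521 with LN-221, and covered day 0 in Nutristem medium (n = 3), day 1 and day 3 with CHIR99021 (n = 3 each), day 5 with IWP2 (n = 5), day 7 and day 9 without either compound (n = 5 each), day 11 (n = 5), and day 14, day 20, day 30 and day 90 (n = 3 each). CHIR99021 inhibits the kinase GSK3 and thereby turns on Wnt signalling, and IWP2 blocks the production of Wnt proteins. The medium from day 1 to day 9 was RPMI 1640 with B27 lacking insulin, and from day 11 it was RPMI 1640 with CTS B-27. The step from day 0 to day 1 therefore changed the basal medium and added CHIR99021 at once, and their effects cannot be told apart. All wells came from a single cell line, and the labels number the replicates without saying whether they were separate differentiations, so p-values measure the spread between these wells only.

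ATF4 is a transcription factor made mainly when the initiation factor eIF2alpha is phosphorylated, by GCN2 when uncharged transfer RNA accumulates, by PERK (gene EIF2AK3) when proteins misfold in the endoplasmic reticulum, or by other kinases. Much of its control is at translation, so the ATF4 transcript need not follow the activity of the protein. Its targets import or synthesise amino acids, charge transfer RNA, restrain the growth kinase complex mTORC1 and, in prolonged stress, promote cell death. Basal media differ in their amino acids, and cells that lack serine or asparagine in the medium have to make them. The amino acid contents of the media used for these wells were not examined.

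ATF4 pairs with C/EBP proteins on a composite element, TGATGNAA, and the promoters of the 10 genes were searched for it because it is the sequence link between them. In RefSeq windows of 250 bases before to 50 bases after a gene's start (GRCh38.p14), read on both strands, 2 of the 10 genes held the element, against 4.46% of 27305 genes with a window. The palindromic cyclic AMP response element TGACGTCA, which was in 2.25% of genes, was in 0 of the 10 genes. The 2 matches are shown with their neighbouring bases on the strand of the gene, the element in capitals.
ASNS, chr7:97872458-97872487, minus strand: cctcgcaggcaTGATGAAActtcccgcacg
CHAC1, chr15:40953251-40953280, plus strand: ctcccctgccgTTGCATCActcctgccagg
The ASNS element lay 68 to 61 bases before the RefSeq start and read in the direction of the gene. The CHAC1 element lay 209 to 202 bases before the start and read in the opposite direction. Both stretches fall inside the wider GENCODE interval of their gene. No match in a window says only that these letters were not there.

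The libraries held 6937136 to 33498022 counts, with 4 libraries under 15000000, on 5 sequencing lanes and with RNA integrity numbers (RIN) of 7.4 to 10. Wells of 1 group resembled each other closely up to day 9 and less so later. Over all tested genes the lowest correlation between wells of a group was 0.962 or more up to day 9 and 0.902 to 0.924 from day 11. At day 11 replicates 1 and 2 stood apart from replicates 5, 6 and 7. Their correlations with those 3 wells were 0.920 to 0.940, against 0.989 between replicates 1 and 2 and 0.992 to 0.993 among the other 3. Levels below are counts-per-million values (CPM) after TMM scaling, unless they are named as transcripts-per-million values (TPM), which account for transcript length. A gene was called changed in a comparison at a Benjamini-Hochberg adjusted p under 0.05 over all tested genes together with a log2 fold change of at least 1.

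By length-corrected level, ATF4 was the most abundant of the 10 transcripts, with a mean TPM of 153.9 over the 12 group means. PHGDH followed at 56.4 TPM, DDIT4 at 46.1 TPM, PSAT1 at 26.3 TPM and ASNS at 21.99 TPM. VLDLR (7.52 TPM), DDIT3 (6.58 TPM), CHAC1 (5.11 TPM), SESN2 (4.05 TPM) and TRIB3 (2.21 TPM) were low. The order in range was different. CHAC1 group means ran from 2.32 CPM at day 3 to 47.3 CPM at day 30, a range of 20.4 times, while ATF4 group means ran from 200.9 CPM at day 90 to 475 CPM at day 1, a range of 2.36 times. ATF4, ASNS, PSAT1 and PHGDH had their highest group mean at day 1, CHAC1, DDIT3 and SESN2 at day 30, DDIT4 at day 3, and TRIB3 and VLDLR at day 90. The day 30 means of CHAC1, DDIT3 and SESN2 were raised by 1 high well. Their day 30 medians were 11.3, 8.28 and 29.5 CPM, and the CHAC1 median at day 1 was 19.9 CPM.

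**Figure D1:**
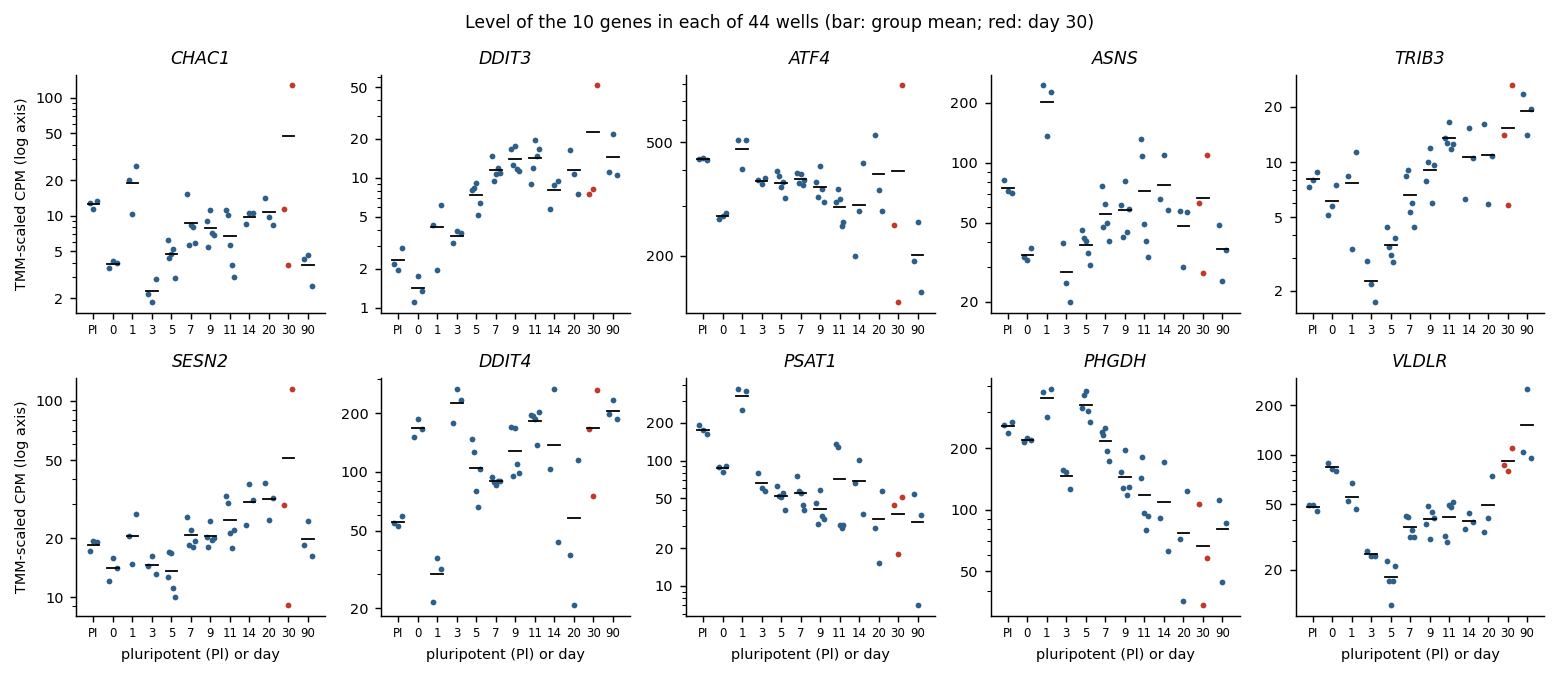
TMM-scaled CPM of each gene in each of the 44 wells on a log axis, by group (Pl, pluripotent; numbers, day), with a bar at each group mean and the day 30 wells in red. CHAC1, ASNS, PSAT1 and PHGDH stood high at day 1, DDIT4 stood low there, and 1 of the 3 day 30 wells was far above the others for CHAC1, DDIT3, ATF4 and SESN2.

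Between pluripotent cells and day 0, the start of differentiation, DDIT4 was the only one of the 10 genes called, and it rose. DDIT4 encodes REDD1, an inhibitor of mTORC1 that is also induced by low oxygen and by glucocorticoids. Its level was 54.9, 52.6 and 59.4 CPM in the pluripotent wells and 151.6, 187.4 and 165.1 CPM in the day 0 wells. The groups did not overlap, and the log2 fold change was 1.60 (SE 0.45, adjusted p = 0.027). Across all tested genes 2.91% were called in this comparison, 2.73% higher and 0.183% lower. The DDIT4 call was lost when any 1 of the 6 wells was left out, with an adjusted p of 0.069 to 0.13 at log2 fold changes of 1.52 to 1.67. The amino acid genes pointed lower without a call. CHAC1, an enzyme that breaks down glutathione, was at 12.5 ± 0.92 CPM (SD, n = 3) in pluripotent cells and 3.91 ± 0.26 CPM (SD, n = 3) at day 0. Its log2 fold change was -1.68 (adjusted p = 0.10). ASNS, which makes asparagine, had a log2 fold change of -1.12 (adjusted p = 0.093). Other fits of this comparison called up to 3 of the 10 genes, 1 higher and 2 lower.

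Of 10 further lists of pathway genes, only hypoxia targets had more than 1 member called at this step. Of the 12 hypoxia targets, 8 were higher and 0 lower, among them PFKFB3 (log2 fold change 2.16, adjusted p = 7.6e-05) and ADM (log2 fold change 2.05, adjusted p = 0.0020). BTG2 rose among 12 p53 targets and ZBTB16 among 5 glucocorticoid targets. The other 7 lists, of amino acid and stress genes, had 0 members called by edgeR.

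From day 0 to day 1, in the first day of CHIR99021 and RPMI medium, 5 of the 10 genes were called: ASNS, CHAC1, PSAT1 and DDIT3 rose and DDIT4 fell. Among all tested genes 13.5% were called, 3.86% higher and 9.66% lower. ASNS went from 33.5, 32.5 and 37.3 CPM in the day 0 wells to 244.7, 136 and 226.8 CPM in the day 1 wells. All day 1 wells were above all day 0 wells, and the log2 fold change was 2.55 (SE 0.42, adjusted p = 2.1e-05).

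PSAT1, the second enzyme of serine synthesis, was at 88.3, 80.9 and 91.2 CPM at day 0 and at 376, 254 and 358 CPM at day 1. The groups did not overlap (log2 fold change 1.93, SE 0.53, adjusted p = 0.0073). PHGDH, the enzyme before it in the pathway, was at 219 ± 5.2 CPM (SD, n = 3) at day 0 and 351 ± 57.7 CPM (SD, n = 3) at day 1, and was not called (log2 fold change 0.68, adjusted p = 0.18).

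CHAC1 was at 3.62, 4.13 and 3.97 CPM at day 0 and at 19.9, 10.4 and 26.2 CPM at day 1. Replicate 2 was the lowest day 1 well, as it was for ASNS, PSAT1 and PHGDH, yet it was more than 2 times the highest day 0 well for CHAC1. The log2 fold change of CHAC1 was 2.27 (SE 0.63, adjusted p = 0.0074), and in a fit of log2(TPM + 1) it was 1.83 (adjusted p = 0.055).

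DDIT3 encodes CHOP, a transcription factor downstream of ATF4. It was at 1.11, 1.76 and 1.35 CPM at day 0 and at 4.35, 1.96 and 6.16 CPM at day 1. The lowest day 1 well was just above the highest day 0 well (log2 fold change 1.56, SE 0.48, adjusted p = 0.015). This call was lost without day 0 replicate 1 (adjusted p = 0.063) and without day 1 replicate 3 (adjusted p = 0.11). DDIT3 overlaps MARS, the methionyl transfer RNA synthetase gene, and whether counting used the strand is not given in the sources used here. MARS was far more abundant, at 204 ± 13.2 CPM (SD, n = 3) at day 0 and 382 ± 39.3 CPM (SD, n = 3) at day 1, and its part in the DDIT3 counts was not tested.

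ATF4 itself had 270, 276 and 281 CPM at day 0 and 511, 402 and 511 CPM at day 1. The groups did not overlap, but ATF4 was not called (log2 fold change 0.78, adjusted p = 0.069). TRIB3, a pseudokinase that restrains ATF4 and CHOP, and SESN2, a leucine sensor that restrains mTORC1, were not called and their groups overlapped. Their log2 fold changes were 0.33 (adjusted p = 0.62) and 0.55 (adjusted p = 0.37).

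DDIT4 moved the other way. It was at 151.6, 187.4 and 165.1 CPM at day 0 and at 21.5, 36.4 and 31.6 CPM at day 1. All day 1 wells were below all day 0 wells (log2 fold change -2.49, SE 0.46, adjusted p = 0.00010). Of the 12 hypoxia targets 8 fell and 1 rose at the same step, with PFKFB4 at a log2 fold change of -2.86 (adjusted p = 0.00019) and EGLN3 at -2.56 (adjusted p = 4.2e-08). In a fit of log2(TPM + 1), 3 of the 10 genes were called, 2 higher and 1 lower.

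Amino acid transporters rose with ASNS and PSAT1. Of the 11 transporters 8 rose and 1 fell, and the median log2 fold change of the list was 1.23 against -0.03 over all tested genes. SLC7A5, a carrier of large neutral amino acids, went from a mean of 106 CPM to 929 CPM (log2 fold change 3.13, adjusted p = 6.8e-08). SLC7A11, the cystine importer that feeds glutathione synthesis, went from 23.7 CPM to 169.7 CPM (log2 fold change 2.84, adjusted p = 0.00030). Of the 13 transfer RNA synthetases 4 rose and 0 fell: WARS (log2 fold change 2.08), CARS (1.15), YARS (1.13) and GARS (1.03). Of 12 enzymes of amino acid and one-carbon synthesis 1 was called, SHMT2, which rose (log2 fold change 1.32, adjusted p = 5.4e-05). Among 11 other stress regulators tested 1 was called, ATF5, which rose (log2 fold change 1.58, adjusted p = 0.014). Of 14 chaperones and sensors of the endoplasmic reticulum 1 was called, HERPUD1, which rose (log2 fold change 1.30, adjusted p = 0.00096). EIF2AK4, the gene of the amino acid sensing kinase GCN2, fell from 221 CPM to 90.7 CPM (log2 fold change -1.29, adjusted p = 5.5e-09).

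By day 3, still with CHIR99021 and the same medium, most of these levels had come down again. Of the 10 genes 6 fell and 1 rose, among 6.80% of all tested genes called lower and 11% called higher (17.8% in either direction). This comparison shares the day 1 wells with the one before it, so a high day 1 well enters both.

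CHAC1 fell to 2.19, 1.86 and 2.91 CPM at day 3, the lowest group mean of the series. No well overlapped with day 1 (log2 fold change -3.02, SE 0.65, adjusted p = 0.00046). ASNS fell to 39.8, 24.8 and 20.0 CPM, also its lowest group mean (log2 fold change -2.84, SE 0.43, adjusted p = 2.4e-06). These were the largest decreases among the 10 genes in any of the 8 comparisons.

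The serine pathway came down as well. PSAT1 was at 80.2, 60.1 and 57.4 CPM at day 3 (log2 fold change -2.32, SE 0.54, adjusted p = 0.0010). PHGDH was at 155.8, 153.5 and 126.6 CPM (log2 fold change -1.27, SE 0.36, adjusted p = 0.0060). Both were below their day 0 levels, which were not tested against day 3.

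TRIB3 had been at 8.35, 3.37 and 11.3 CPM at day 1 and was at 2.90, 2.16 and 1.74 CPM at day 3 (log2 fold change -1.76, SE 0.40, adjusted p = 0.00092). VLDLR, a lipoprotein receptor whose transcription responds to ATF4 and to low oxygen, was at 52.2, 67.3 and 47.0 CPM and then at 26.2, 24.4 and 24.4 CPM (log2 fold change -1.15, SE 0.27, adjusted p = 0.0013). VLDLR overlaps the antisense gene VLDLR-AS1, which fell too, from 2.56 ± 0.46 CPM to 0.45 ± 0.16 CPM (SD, n = 3 each), a small count beside VLDLR. The VLDLR call was lost in both fits of TPM (adjusted p = 0.15) and the TRIB3 call on log2(TPM + 1) (adjusted p = 0.062). ATF4 (log2 fold change -0.37), SESN2 (-0.49) and DDIT3 (-0.21) were not called. DDIT3 was at 3.14, 3.87 and 3.77 CPM, above all day 0 wells.

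DDIT4 rose to 178.4, 265.2 and 233.8 CPM, above its day 1 wells without overlap (log2 fold change 2.92, SE 0.47, adjusted p = 6.8e-06). Of the 12 hypoxia targets 8 rose and 0 fell, led by PFKFB4 (log2 fold change 3.26) and NDRG1 (3.26). Of the 5 glucocorticoid targets 3 rose, among them ZBTB16 (log2 fold change 2.18) and TSC22D3 (1.15).

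Of the 11 amino acid transporters 7 fell and 0 rose, with SLC7A11 at a log2 fold change of -4.34 (adjusted p = 7.6e-07) and SLC7A5 at -3.51 (adjusted p = 4.4e-09). Of the 13 transfer RNA synthetases 9 fell and 0 rose, led by MARS (log2 fold change -1.86) and WARS (-1.81). ALDH1L2 (-3.27), MTHFD2 (-1.21) and SHMT2 (-1.09) fell among the 12 synthesis and one-carbon enzymes, and 6 of 8 NRF2 targets fell. The median log2 fold change was -1.71 for the transporters, -1.14 for the synthetases and 0.07 for all tested genes.

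**Figure D2:**
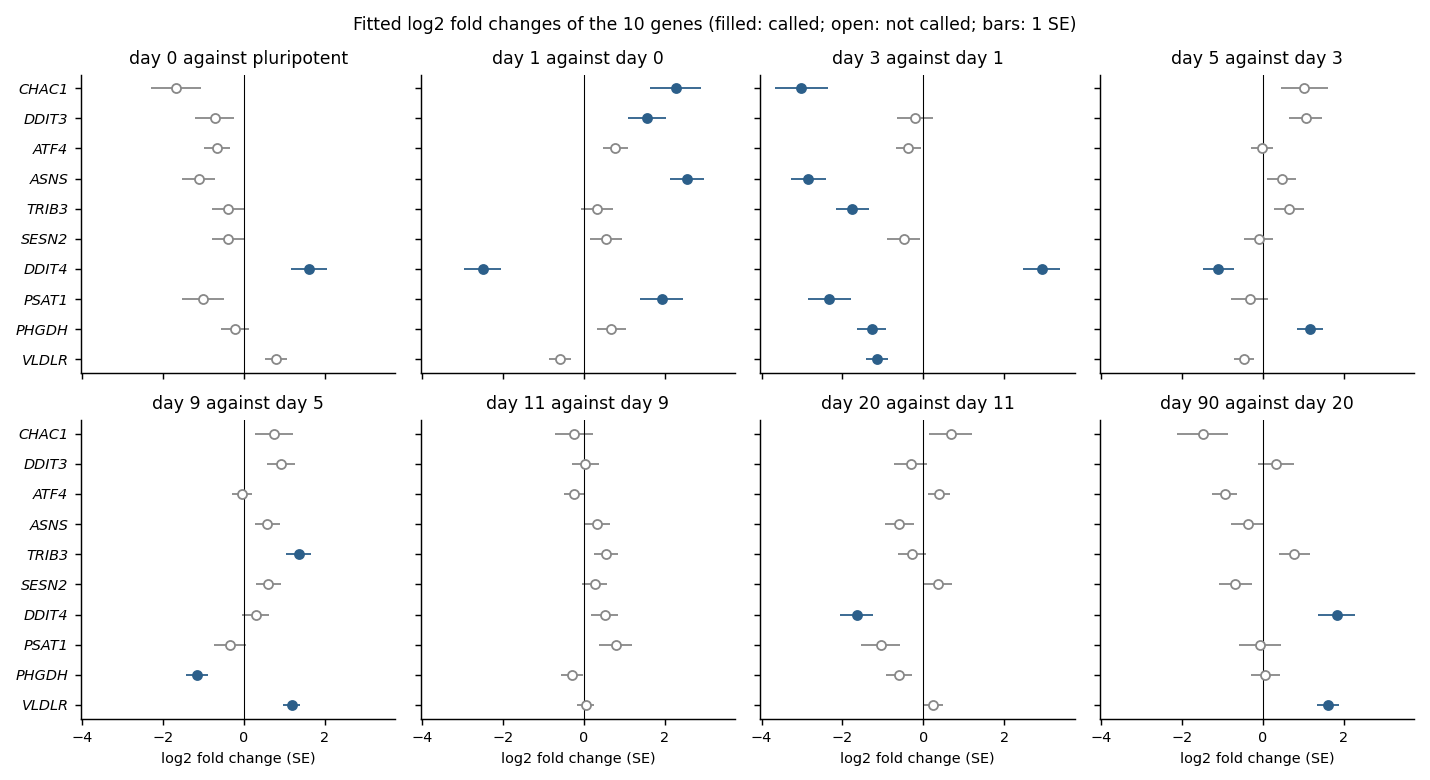
Fitted log2 fold change of each gene in the 8 tested comparisons, with bars of 1 SE and filled points where the gene was called. The first day and the following step to day 3 held 5 and 7 calls of opposite sign for ASNS, CHAC1, PSAT1 and DDIT4, and the step from day 9 to day 11 held 0.

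From day 3 to day 5, when CHIR99021 was replaced by IWP2, PHGDH rose and DDIT4 fell, 2 calls among the 10 genes, where 10.1% of all tested genes were called (5.75% higher and 4.34% lower). PHGDH was at 266.6 to 379 CPM over the 5 day 5 wells, with a median of 313.7 CPM, and all wells were above those of day 3 (log2 fold change 1.16, SE 0.33, adjusted p = 0.011). PSAT1 did not follow, at 40.5 to 62.9 CPM (log2 fold change -0.33, adjusted p = 0.68). DDIT4 was at 147.2, 126.2, 80.2, 66.1 and 103.9 CPM (log2 fold change -1.11, SE 0.38, adjusted p = 0.038). Of the 12 hypoxia targets 5 fell and 0 rose, among them BNIP3 (log2 fold change -2.13, adjusted p = 2.2e-07). WARS also fell (log2 fold change -1.03, adjusted p = 0.022), and SLC1A4 (2.08) and the transcription factor gene JDP2 (1.36) rose.

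Both calls rested on few wells. The PHGDH call was lost without day 3 replicate 3 (adjusted p = 0.085). The DDIT4 call was lost without day 3 replicate 1 (adjusted p = 0.060), 2 (0.17) or 3 (0.13) and without day 5 replicate 3 (0.087), 4 (0.089) or 5 (0.063). A model with sequencing lane as a term gave DDIT4 an adjusted p of 0.069, and fits of TPM kept 1 of the 10 genes, DDIT4, as lower and 0 as higher.

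From day 5 to day 9 TRIB3 and VLDLR rose and PHGDH fell, 3 calls among the 10 genes, where 10.2% of all tested genes were called (6.84% higher and 3.39% lower). TRIB3 was at 2.87 to 4.45 CPM at day 5 and 5.98 to 11.95 CPM at day 9, with day 7 in between at a mean of 6.63 ± 1.98 CPM (SD, n = 5). The log2 fold change was 1.36 (SE 0.31, adjusted p = 0.0012). VLDLR was at 12.2 to 22.6 CPM and then 30.97 to 48.8 CPM (log2 fold change 1.18, SE 0.21, adjusted p = 7.7e-05). PHGDH was at 118 to 195 CPM at day 9, below all day 5 wells (log2 fold change -1.17, SE 0.28, adjusted p = 0.0019).

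DDIT3 was at 5.22 to 9.16 CPM at day 5 and 11.3 to 17.6 CPM at day 9 without overlap, and its log2 fold change of 0.91 missed the threshold (adjusted p = 0.058). SLC1A4, a carrier of alanine, serine and cysteine, rose from 1.63 to 21.5 CPM (log2 fold change 3.71, adjusted p = 6.3e-12), and SLC7A3, a carrier of arginine and lysine, fell (log2 fold change -2.23, adjusted p = 5.3e-08). ATF3 (log2 fold change 1.74) and GDF15 (1.53) rose among the 11 stress regulators tested, and 4 of 12 p53 targets rose, led by CDKN1A (2.09). Fits of TPM called 1 of the 10 genes, lower, and 0 higher.

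From day 9 to day 11, when the medium changed to the one with CTS B-27, 0 of the 10 genes were called by edgeR, 0 had an unadjusted p under 0.05, and DESeq2 and limma also called 0. Across all tested genes 1.63% were called, 0.396% higher and 1.24% lower. The day 11 means cover the division between wells described above for whole profiles.

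PSAT1 was at 136 and 129 CPM in day 11 replicates 1 and 2 and at 30.7, 28.98 and 30.6 CPM in replicates 5, 6 and 7. ASNS was at 131 and 108 CPM in replicates 1 and 2 and at 49.4, 40.4 and 33.6 CPM in the others. CHAC1 was at 11.2 and 10.1 CPM against 5.67, 3.83 and 3.04 CPM. PHGDH and SESN2 were likewise higher in replicates 1 and 2 than in each of the other 3 wells.

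In CPM, DDIT3 and VLDLR were lower in replicates 1 and 2. DDIT3 was at 9.06 and 11.9 CPM there and at 19.7, 14.6 and 16.6 CPM in the others. In CPM, 5 of the 10 genes were above and 2 below in both wells. Among 15378 genes with a mean of at least 1 CPM at day 11, 31.4% were above and 40.6% below. These groups of wells were seen in the data, so no test was made between them.

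The enzymes of amino acid and one-carbon synthesis showed the same division in 10 of 12 members and the transfer RNA synthetases in 9 of 13. MTHFD2 was at 162 and 153 CPM in replicates 1 and 2 and at 72.5 to 86.3 CPM in the others, and WARS was at 117 and 96.1 CPM against 32.8 to 34.7 CPM. The amino acid transporters went both ways, with 4 of 11 above and 5 below. SLC7A11 was at 41.5 and 35.4 CPM against 5.52 to 8.19 CPM, and SLC43A1 was at 10.2 and 8.07 CPM against 15.4 to 17.7 CPM. Of 10 other stress regulators 2 were above and 5 below, ATF3 being at 9.11 and 11.7 CPM against 24.9 to 37.9 CPM. Of 14 chaperones and sensors of the endoplasmic reticulum 11 were above. Of 11 hypoxia targets 8 were below and 0 above, and of 5 glucocorticoid targets 5 were below.

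The cell type markers divided in the same wells. The summed level of 6 cardiomyocyte markers was 7231 and 4682 CPM in replicates 1 and 2 and 17423 to 18601 CPM in the others. The sum of 6 liver and endoderm markers was 4504 and 8596 CPM against 157.5 to 171 CPM, and that of 4 genes of dividing cells was 537.5 and 656.6 CPM against 158 to 193 CPM. RIN was 8.6 and 8.0 in replicates 1 and 2 and 9.2 to 9.5 in the others. The part of cell composition, proliferation and RNA integrity in the levels of the 10 genes was not tested. In bulk RNA, fewer cells of a type and less RNA per cell cannot be told apart.

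At day 14 the wells were again unlike. DDIT4 was at 103, 267 and 43.5 CPM in replicates 2, 3 and 6, and replicate 3 was also the highest day 14 well for ASNS (109 CPM), PSAT1 (100.7 CPM), PHGDH (172 CPM) and SESN2 (37.5 CPM). In TPM that order turned for ASNS and SESN2, which were lowest in replicate 3, at 28.3 and 5.22 TPM, and PSAT1 was highest in replicate 2, at 25.7 TPM. ATF4 was highest in replicate 6, at 422 CPM against 199 and 286 CPM. Replicates 2 and 6 of day 14 had under 15000000 counts.

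From day 11 to day 20 DDIT4 fell, the only call among the 10 genes, where 5.22% of all tested genes were called (3.57% higher and 1.65% lower). It was at 136.6 to 203 CPM over the 5 day 11 wells and at 37.4, 20.8 and 115 CPM at day 20 (log2 fold change -1.65, SE 0.42, adjusted p = 0.0097). The day 20 wells lay below all day 11 wells, with replicate 3 well above the other two. Without day 20 replicate 1 the adjusted p was 0.072, without replicate 2 it was 0.11, and without replicate 3 the log2 fold change was -2.73 (adjusted p = 0.00014) and 3 of the 10 genes were called lower. Without the divided day 11 replicates 1 and 2 the log2 fold change was -1.58 (adjusted p = 0.013). In a fit of these groups alone DDIT4 had a log2 fold change of -1.66 (adjusted p = 0.12). Day 20 replicate 2 was the shallowest library of the series, with 6937136 counts and a mitochondrial share of 4.56%, and gave the lowest day 20 CPM of ASNS, TRIB3, SESN2, DDIT4, PSAT1 and PHGDH. In TPM it was the highest day 20 well for SESN2, at 6.18 TPM against 5.47 and 5.16 TPM, and ASNS was at 15.7, 15.2 and 16.6 TPM in replicates 1, 2 and 3.

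Among the other lists, SLC7A1, the carrier of arginine and lysine, rose from 38.4 to 136 CPM (log2 fold change 1.82, adjusted p = 0.0031), and 2 of the 11 transporters fell. ATF5 rose (log2 fold change 1.26, adjusted p = 0.044) with overlapping wells. The transfer RNA synthetases and the synthesis enzymes had 0 members called by edgeR.

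From day 20 to day 90 DDIT4 and VLDLR rose, 2 calls among the 10 genes, where 15.4% of all tested genes were called (7.04% higher and 8.35% lower). DDIT4 was at 197, 233 and 186 CPM in the day 90 wells, above all day 20 wells (log2 fold change 1.82, SE 0.45, adjusted p = 0.0026). Without day 20 replicate 3 that log2 fold change was 2.86. VLDLR was at 33.8, 41.2 and 74.0 CPM at day 20 and at 103, 253 and 96.2 CPM at day 90 (log2 fold change 1.60, SE 0.28, adjusted p = 5.2e-05). Replicate 4 was more than 2 times the other day 90 wells for VLDLR, and without it the log2 fold change was 1.05 (adjusted p = 0.0032).

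ATF4 was at 191, 263 and 149 CPM at day 90 against 533, 341 and 288 CPM at day 20. Its adjusted p was 0.023, but the log2 fold change of -0.95 was just short of the size required. CHAC1 was at 4.26, 4.66 and 2.52 CPM at day 90, below the day 20 wells at 14.1, 9.71 and 8.36 CPM, without a call (log2 fold change -1.50, SE 0.63, adjusted p = 0.076). Day 90 replicate 4 was apart for several members: PSAT1 was at 53.9, 7.03 and 36.5 CPM in replicates 2, 4 and 5, and PHGDH at 111, 44.1 and 86.3 CPM, while DDIT3 was highest in replicate 4, at 21.8 CPM against 11.1 and 10.6 CPM. The sum of fibroblast markers was 2204 CPM in that well against 12840 and 6585 CPM, and that of cardiomyocyte markers 14443 CPM against 10912 and 11759 CPM. Their part was not tested.

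Fits of TPM gave another balance for this step. On log2(TPM + 1), 4 of the 10 genes were called lower and 0 higher, and the median change of all tested genes moved from -0.16 to -0.41. When only the day 20 and day 90 wells were fitted, 0 of the 10 genes were called (adjusted p = 0.090 for DDIT4 and 0.078 for VLDLR).

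Of the 12 hypoxia targets 4 rose and 0 fell by day 90: CA9, EGLN3 (log2 fold change 2.38), ANKRD37 (1.94) and BNIP3 (1.40). CA9 had a mean of 0.0998 CPM at day 20, under what 3 counts are worth in those libraries, and 13.8 CPM at day 90. Of the 11 transporters 3 fell, SLC7A5 (log2 fold change -2.37), SLC7A1 (-1.85) and SLC7A3 (-1.24), and SLC1A4 rose (1.49). NUPR1, a small stress-induced chromatin protein, rose from 1.02 to 17.7 CPM (log2 fold change 4.44, adjusted p = 0.00024), while ATF3 fell (-1.92, adjusted p = 0.025).

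The set was found by its spread at day 30. For CHAC1, SESN2, DDIT3 and ATF4 the widest gap was between replicate 3 and the other wells. For TRIB3, ASNS, DDIT4 and PSAT1 the low replicate 10 stood further from the middle well than replicate 3 did, as a ratio of CPM values. In TPM replicate 3 stood further for these genes, TRIB3 being at 2.26, 1.51 and 8.31 TPM in replicates 1, 10 and 3. CHAC1 was at 11.3, 3.83 and 127 CPM in day 30 replicates 1, 10 and 3. The highest well was 33.1 times the lowest and 11.2 times the middle one, and without replicate 3 the ratio of the remaining wells was 2.9. In TPM the wells were at 3.01, 1.69 and 65.5. No other well of the 44 exceeded 26.2 CPM for CHAC1.

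SESN2 was at 29.5, 9.14 and 115.5 CPM in replicates 1, 10 and 3, a ratio of 12.6 between highest and lowest. DDIT3 was at 7.57, 8.28 and 51.8 CPM, a ratio of 6.84. The overlapping gene MARS was at 203, 70.9 and 240 CPM in the same wells. ATF4 was at 257, 137.5 and 794 CPM, a ratio of 5.77, and replicate 3 was the highest well of the series for it. TRIB3 was at 14.1, 5.86 and 26.1 CPM, a ratio of 4.46.

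The other 5 members had ratios under 4: ASNS with 62.7, 28.0 and 109.7 CPM (ratio 3.92), DDIT4 with 166.7, 74.8 and 261.5 CPM (3.50), PHGDH with 106.5, 34.2 and 58.0 CPM (3.11), PSAT1 with 44.02, 18.1 and 51.2 CPM (2.83) and VLDLR with 86.1, 80.0 and 109.7 CPM (1.37). Replicate 3 was the highest well for 9 of the 10 genes and replicate 1 for PHGDH. Replicate 10 was the lowest well in CPM for 9 of them, DDIT3 being lowest in replicate 1. In TPM replicate 3 was the highest well for PHGDH too, at 22.6, 11.9 and 24.4 TPM in replicates 1, 10 and 3, and PSAT1 was at 8.57, 5.39 and 19.7 TPM. In CPM, ASNS lay just outside a ratio of 4 and TRIB3 just inside it. By TPM, ASNS (13.9, 11.4 and 49.7 TPM) and DDIT4 (40.1, 29.9 and 126 TPM) were also above 4. VLDLR was at 8.27, 11.9 and 19.6 TPM, with replicate 1 the lowest.

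Among 15396 genes with a mean of at least 1 CPM at day 30, 11.4% had a ratio of at least 4, replicate 3 was the highest well for 41.7%, and 6.11% met both. Since the day 30 values led to the choice of the set, the 5 of 10 genes with both are not evidence beyond them. In the groups from pluripotent cells to day 9, 0 of the 10 genes reached a ratio of 4. Among all genes 0.435% did in pluripotent cells and 0.275% at day 0. The share was 0.912% in the day 1 wells, 0.571% by day 3, 3.02% by day 5, 2.64% by day 7 and 3.89% by day 9. At day 11 PSAT1 did (ratio 4.70, against 8.19% of genes), at day 14 DDIT4 (6.14, 9.85%), at day 20 DDIT4 (5.55, 12.4%) and at day 90 PSAT1 (7.67, 8.65%). CHAC1 had ratios of 1.14 to 3.67 in the other 11 groups.

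**Figure D3:**
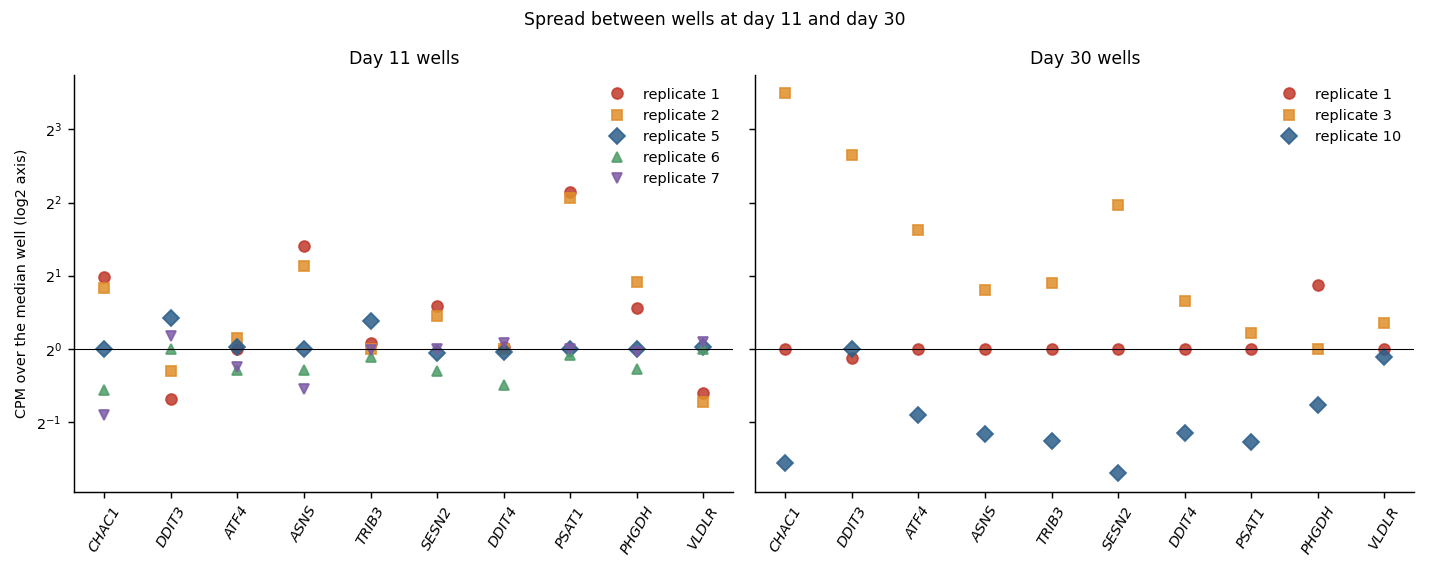
CPM of each gene in each day 11 well (left) and day 30 well (right), divided by the median well of that day, on a log2 axis. At day 11 replicates 1 and 2 were high for PSAT1, ASNS, CHAC1, PHGDH and SESN2 and low for DDIT3 and VLDLR. At day 30 replicate 3 was high for CHAC1, DDIT3, SESN2 and ATF4 with little difference for PSAT1 and VLDLR.

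CHAC1, SESN2 and ASNS were high both in day 11 replicates 1 and 2 and in day 30 replicate 3. In CPM, DDIT3 was low in the former and high in the latter. In TPM it was not low in the former, at 8.50 and 10.49 TPM against 7.49 to 9.05 TPM. ATF4 was within or just above the range of the other day 11 wells and was high in day 30 replicate 3. PSAT1 and PHGDH were high in day 11 replicates 1 and 2, while in day 30 replicate 3 PSAT1 was close to replicate 1 and PHGDH lay between the other wells in CPM.

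Some other regulators of the same response were high in day 30 replicate 3. The other lists were read in the same wells that led to the choice of the set, and were chosen with earlier results known. Their counts are therefore a description without a test and not evidence beyond those wells. Of 11 other stress regulators 5 had a ratio of at least 4 with replicate 3 the highest, against 6.11% of 15396 genes. Replicate 3 was the highest well for 8 of the 11, against 41.7% of genes. The exceptions were EIF4EBP1 (57.4, 54.0 and 39.2 CPM in replicates 1, 10 and 3), NUPR1 (2.52, 2.66 and 1.85 CPM) and STC2 (127.8, 65.4 and 98.8 CPM). ATF3, a transcription factor induced by many stresses, was at 16.6, 35.3 and 258 CPM in replicates 1, 10 and 3. GDF15, a secreted stress hormone, was at 2.40, 1.72 and 10.0 CPM. PPP1R15A and PPP1R15B, the subunits that direct a phosphatase to eIF2alpha, were at 58.4, 58.5 and 309.5 CPM and at 79.0, 57.5 and 312 CPM. Among the 6 eIF2alpha kinases and GCN2 partners 1 did, EIF2AK3, the gene of the kinase PERK, at 24.2, 25.5 and 210 CPM.

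Of the 11 amino acid transporters 4 had such a ratio with replicate 3 the highest, against 6.11% of all genes. SLC7A1 was at 54.9, 35.0 and 337 CPM in replicates 1, 10 and 3, SLC3A2 at 72.3, 28.97 and 249.8 CPM, SLC7A5 at 81.0, 31.8 and 219 CPM and SLC7A11 at 10.9, 5.31 and 29.7 CPM. SLC3A2 is the shared heavy chain of the SLC7A5 and SLC7A11 carriers. Of the 13 transfer RNA synthetases 1 did, CARS, at 35.3, 12.9 and 113 CPM. Of the 12 synthesis enzymes and of the 14 chaperones and sensors of the endoplasmic reticulum, 0 did. Hypoxia targets were mixed: 2 of 11 had a ratio of at least 4, with replicate 3 the highest in neither, and replicate 3 was the highest well for 5 of 11. PFKFB4 was at 86.3, 29.5 and 13.8 CPM in replicates 1, 10 and 3, whereas EGLN3 was at 78.4, 57.9 and 202 CPM. The median ratio of that list was 3.10 against 1.84 over all genes. Of 12 p53 targets 3 had it with replicate 3 the highest (PHLDA3, GDF15 and FAS), of 8 NRF2 targets 1 (SLC7A11) and of 5 glucocorticoid targets 0. HSPA5, the main chaperone of that compartment, was at 247, 131.5 and 282 CPM, and HERPUD1, which serves the disposal of misfolded proteins there, at 37.3, 28.0 and 111 CPM.

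**Figure D4:**
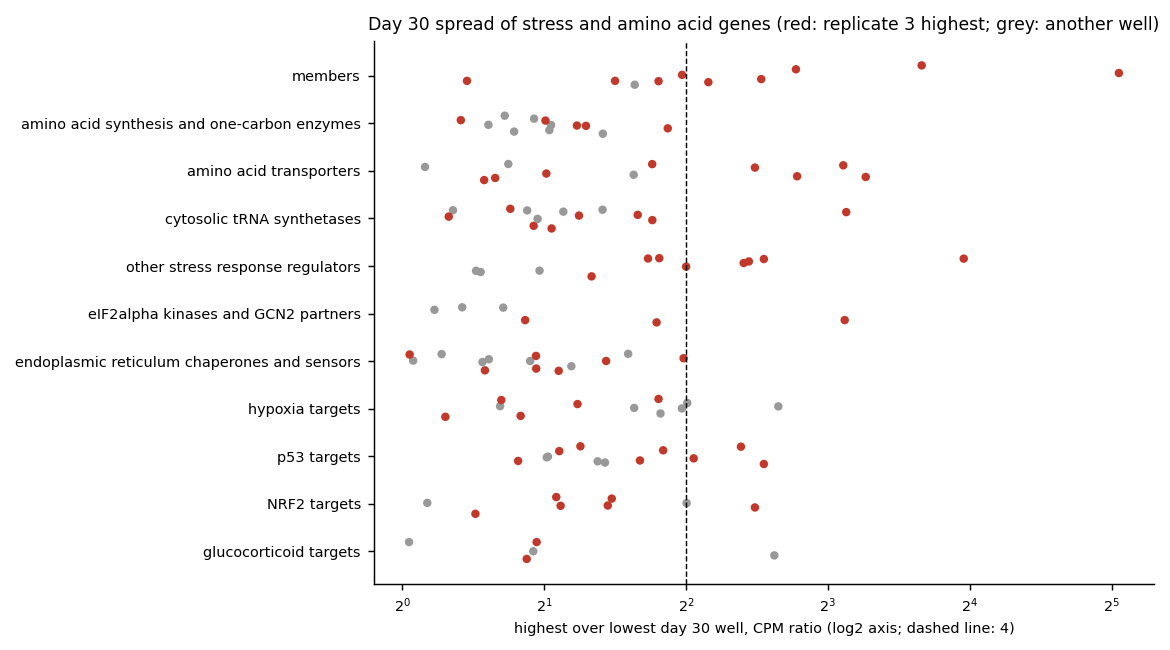
Ratio of the highest to the lowest day 30 well for each gene of the 10 members and of the other pathway lists, on a log2 axis, in red where replicate 3 was the highest well and grey otherwise, with a dashed line at 4. The members, transporters and other stress regulators had 5, 4 and 5 genes at 4 or more, and the synthesis enzymes and endoplasmic reticulum genes had 0.

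Markers of other cell types differed between the same wells. The sum of 6 liver and endoderm markers was 40.1, 20.2 and 289 CPM in day 30 replicates 1, 10 and 3, with AFP at 20.6, 9.45 and 209 CPM, and all 5 of the list with at least 1 CPM were highest in replicate 3. At day 20 that sum was 931 to 3982 CPM, above the level of day 30 replicate 3. The sum of 5 endothelial markers was 47.5, 31.004 and 125 CPM, of 5 fibroblast markers 3218, 2587 and 6008 CPM, and of 6 cardiomyocyte markers 10522, 11102 and 6327 CPM. No marker of these 4 lists was at 0 in all wells of the day. Among the other lists, the sum of neural markers was 15.2, 28.0 and 9.17 CPM. That of epicardial and mesothelial markers was 15.9, 12.5 and 6.11 CPM, and of pluripotent markers 10.5, 22.6 and 11.3 CPM. Genes of dividing cells summed to 125, 249 and 180 CPM and smooth muscle markers to 2444, 959 and 2637 CPM. RIN was 9.5, 7.4 and 10, the total count 27411186, 11715812 and 23661479, and the lane 2, 4 and 3. The mitochondrial share was 1.21%, 4.56% and 0.717% in the same order. Replicate 10, the lowest well for most of the 10 genes, was the shallowest, with the lowest RIN and the highest mitochondrial share. Replicate 3 lay between the others in depth, with the highest RIN and the lowest mitochondrial share. The part of cell composition, depth, RIN, mitochondrial share and lane in the spread of the 10 genes was not tested.

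Against day 20 the day 30 mean of CHAC1 differed by a log2 fold change of 2.14 and of DDIT4 by 1.53, and against day 30 the day 90 mean of CHAC1 differed by -3.64. These are values without a test, and the CHAC1 wells of day 30 overlapped with those of both other days. In CPM, VLDLR was the only one of the 10 genes whose day 30 wells all lay above those of day 20 (log2 fold change 0.89). Its lowest day 30 well was at 80.0 CPM and its highest day 20 well at 74.0 CPM. In TPM its wells overlapped, at 8.27 to 19.56 TPM at day 30 and 3.65 to 10.06 TPM at day 20.

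Within groups, the genes did not all move with CHAC1. The deviations of log2(CPM + 0.5) from the group mean over the 44 wells had a Pearson r with those of CHAC1 of 0.89 for SESN2, 0.86 for ATF4, 0.72 for ASNS, 0.69 for DDIT3 and 0.59 for TRIB3. The r was 0.43 for PSAT1, 0.33 for DDIT4, 0.27 for PHGDH and -0.05 for VLDLR. These are descriptions, since the values of a well share its library, depth and cell composition. Without the 3 day 30 wells, over 41 wells, r was 0.71 for ASNS, 0.69 for SESN2 and 0.61 for ATF4. It was 0.44 for PSAT1, 0.35 for DDIT3, 0.35 for TRIB3, 0.34 for PHGDH, 0.06 for DDIT4 and -0.33 for VLDLR. The likeness of ASNS to CHAC1 was thus about as high without day 30, whereas that of DDIT3 was lower.

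Among all other protein-coding genes the 8 nearest to CHAC1 by this measure were CARS (r = 0.90), PTPN1 (0.86), OSBP (0.85), COPG1 (0.84), MYO10 (0.84), HERPUD1 (0.83), TARS (0.82) and ZKSCAN5 (0.82). CARS and TARS are cytosolic transfer RNA synthetases, and COPG1 is a subunit of the COPI vesicle coat. This ranking includes the day 30 wells that led to the choice of the set. Without the day 30 wells r was lower for all 8 genes. It was 0.73 for CARS, 0.65 for TARS, 0.58 for HERPUD1 and 0.57 for OSBP. It was 0.56 for COPG1, 0.55 for MYO10, 0.53 for ZKSCAN5 and 0.50 for PTPN1. Over the 12 group means, the mean standardised level of the 10 genes was highest at day 1 (0.62), next at day 30 (0.39), and lowest at day 3 (-0.67). The genes whose 12 group means were most like that profile were DAP3 (r = 0.87), TSEN15 (0.86), OGDHL (0.86), SEC61A1 (0.85) and RIC8A (0.84). CHAC1 (0.90) and ASNS (0.88) were the members most like it, and DDIT4 the least (-0.55).

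The genes lie at separate loci. In GENCODE release 29 on hg38, CHAC1 (ENSG00000128965) spans 40952962 to 40956519 on chromosome 15, plus strand, and ASNS (ENSG00000070669) spans 97852118 to 97872542 on chromosome 7, minus strand. ATF4 (ENSG00000128272) spans 39519695 to 39522685 on chromosome 22, DDIT3 (ENSG00000175197) 57516588 to 57521737 on chromosome 12, and TRIB3 (ENSG00000101255) 362835 to 397559 on chromosome 20. SESN2 (28259527 to 28282491) and PHGDH (119648411 to 119744226) are both on chromosome 1, PSAT1 (78297143 to 78330093) and VLDLR (2621834 to 2660053) both on chromosome 9, and DDIT4 (72273920 to 72276036) is on chromosome 10. Besides MARS and VLDLR-AS1, overlapping genes were MBD6 and MIR616 at DDIT3, AC005326.1 at ASNS and DDIT4-AS1 at DDIT4. MIR616 and AC005326.1 were listed at 0 in all 44 libraries, DDIT4-AS1 did not exceed 0.21 CPM in any, and MBD6 did not exceed 18.6 CPM.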

How the data were processed

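Total RNA was sequenced in 44 wells of H1 cells (TruSeq stranded total RNA, per the labels' protocols). Reads were processed with cutadapt, STAR 2.5.2b and RSEM 1.2.31 on hg38, per the submitters' processing notes. The annotation release, the strand setting and any filters are not given in the sources used here. The deposited tables hold RSEM expected counts per gene (93.84% of values whole), which were rounded for testing, and the authors' deposited TPM values. A deposited sample sheet gives lane and RIN. Of 60499 identifiers, 56769 were named by GENCODE 29 and 3730 were not.

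All 44 libraries were fitted with 12 group means by edgeR 4.0.16 (filterByExpr, TMM, quasi-likelihood test) in R 4.3.3, with Benjamini-Hochberg adjustment over 22955 genes in each of 8 comparisons. A call needed an adjusted p under 0.05 and a log2 fold change of at least 1. Day 30 was in no tested comparison, but its wells entered the shared estimate of spread. The fit was tested on simulated data with 200 genes changed 4-fold at day 90 against day 20. It called 125 of them (62.5%), with 2 false calls, so a gene not called may still have changed. The median library had 26010763 counts, and 3 counts, the limit of detection from counting error alone, are worth 0.43 CPM in the shallowest library.

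The 10 genes, the 10 other pathway lists (103 genes) and the 9 marker lists were chosen with earlier results of these data known. Named genes were the 10 genes, up to 4 called genes per list and comparison by size, list genes with a day 30 ratio of at least 4, and the nearest genes by correlation. MTHFD2, WARS, SLC7A11, SLC43A1 and ATF3 at day 11, HSPA5, HERPUD1 and EGLN3 at day 30, the overlapping genes and AFP were named after their values were seen. The alternatives were RLE scaling, no low-count filter, CPM above 1 in 3 libraries, a replicate block, lane as a term, the compared groups alone, DESeq2 1.42.0, limma 3.58.1 on log2(TPM + 1) and log2(TPM + 0.1), and each well left out. Fits without day 30, without libraries under 15000000 counts and without day 11 replicates 1 and 2 were chosen after seeing the data.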

Additional observations from a re-analysis of the deposited data

Results flagged for a closer look

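In groups of 4 to 10 wells, the highest and lowest well of each of the 10 genes was compared with its neighbours, for 40 combinations of gene and group. In 2 of these a well stood further from the rest than Dixon's 95% limit, and chance gives about 1 in 20. CHAC1 was at 15.23 CPM in day 7 replicate 1, against 5.65 to 8.33 CPM in the other 4 wells, a gap of 0.72 of the whole range where the limit is 0.71. DDIT4 was at 136.6 CPM in day 11 replicate 6, the lowest well, against 186.7 to 203 CPM in the other 4, a gap of 0.75 of the range. Day 7 entered no tested comparison. Without day 11 replicate 6 the fall of DDIT4 to day 20 had a log2 fold change of -1.74 (adjusted p = 0.012).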

How the results depend on the processing

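RLE scaling, no low-count filter and the stricter low-count filter kept the number of called genes among the 10 in all 8 comparisons. Of 232 refits of the called genes under settings other than leaving out a well, 210 kept the call and 22 lost it, 17 of these with limma on TPM; of 144 refits with a well left out, 127 kept it and 17 lost it, and none reversed. From pluripotent cells to day 0, 1 of the 10 genes was called, and 2 with lane as a term or without day 30, 3 with the compared groups alone, DESeq2 or without libraries under 15000000 counts, and 0 with either TPM fit and without any single well. From day 0 to day 1 the number was 5, and 3 with log2(TPM + 1). From day 3 to day 5 it was 2, and 1 with lane as a term and with either TPM fit, 4 with the compared groups alone or without day 30, and 0 to 2 with a well left out. From day 5 to day 9 it was 3, and 1 with either TPM fit. From day 11 to day 20 it was 1, and 0 with the compared groups alone and 0 to 3 with a well left out. From day 20 to day 90 it was 2, and 0 with the compared groups alone, 4 with log2(TPM + 1), 5 with log2(TPM + 0.1) and 4 without the shallow libraries. The causes were not tested. TPM shifted the median change of all tested genes, from -0.16 to -0.85 at day 90 against day 20 with log2(TPM + 0.1), and from 0.07 to 0.35 at day 20 against day 11. The day 30 ratio of CHAC1 was 33.1, between 2.9 (without replicate 3) and 33.1 with a well left out, and 11.2 without replicate 10.

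Whether the replicate numbers pair wells was not settled. In 0 of the 5 comparisons with 3 or more shared numbers did every same-numbered pair correlate above 0.1 in its deviations. Single pairs differed widely. The r was 0.51 for replicate 2 from day 9 to day 11 and 0.34 for replicate 1 from pluripotent cells to day 0. It was -0.22 for replicate 1 from day 11 to day 20. With the replicate number as a block, 2 genes were called from pluripotent cells to day 0, 1 from day 3 to day 5, where DDIT4 was lost (log2 fold change -0.96, adjusted p = 0.063), and 4 from day 11 to day 20. In those 5 comparisons 2, 1, 2 and 1 of 3 wells and 0 of 4 correlated best with their own number. Depth limits the low members most: DDIT3 had as few as 33 counts in a library, TRIB3 43 and CHAC1 45.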
